A study of Mus musculus with 4 samples.

Results

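Zbtb16, Id4, Sall4, Egr4, Nanos2, Nanos3, Lhx1, Upp1, Foxf1 and Tcl1 are 10 genes known from undifferentiated spermatogonia, the male germ cells that include the spermatogonial stem cells. They were found by symbol among the 31017 symbols of the deposited matrices, and all 10 had counts. They were followed over each whole library and in its germ cells, taken as cells with at least 2 unique molecular identifiers (UMIs, counted molecules) of Ddx4 and Dazl together, both RNA-binding proteins of germ cells. This rule took 12356 of 23038 kept cells.

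The study compared testis pieces in organ culture with testes that matured in the animal, by single-cell RNA sequencing. All mice were C57BL/6 and carried the Acr-Gfp transgene, a green fluorescent reporter under the promoter of the acrosomal gene Acr. The cultured groups came from testes of 7 days postpartum (dpp), cut up and held for 2 or 7 days on agarose in α-MEM with AlbuMAX, a lipid-rich albumin, beneath a PDMS (silicone) ceiling. The other groups were testes taken at 9 dpp and at 14 dpp, so culture time added to starting age matches the age of 1 uncultured library in each pair. Each group had 1 library. The number of animals behind a library was not given, and the preparation text in the labels speaks of female gonads, while the tissue is labelled testis. There is therefore no replicate check, no test between groups could be run, and the culture cannot be told apart from the library. Intervals are 95% intervals that cover counting error only: exact Poisson for levels, exact binomial for ratios and Clopper-Pearson for shares. Levels (CPM) are UMI counts scaled to a fixed total, taken over the UMIs of the cells named. The 2-day culture with 9 dpp is called the younger or 2-day pair, and the 7-day culture with 14 dpp the older or 7-day pair.

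Spermatogonial stem cells divide to renew themselves or to give progenitors, which stay undifferentiated for some divisions before retinoic acid turns on Kit and Stra8 and commits them to differentiation and then meiosis. Renewal depends on glial cell line-derived neurotrophic factor (GDNF), released by Sertoli cells and received through Gfra1 and the kinase Ret. Zbtb16 and Sall4 are zinc-finger transcription factors that act through much of the undifferentiated state. Id4 blocks basic helix-loop-helix (bHLH) factors and marks stem cells, Nanos2 and Nanos3 are RNA-binding proteins of stem cells and progenitors, and Lhx1 is a GDNF-responsive transcription factor.

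All 10 are protein-coding genes in GENCODE M21 on GRCm38. Zbtb16 lies at chr9:48654297-48836222, Id4 at chr13:48261228-48266026, Sall4 at chr2:168748332-168767943, Egr4 at chr6:85511121-85513589 and Nanos2 at chr7:18987400-18988962. Nanos3 lies at chr8:84173731-84185217, Lhx1 at chr11:84518284-84525535, Upp1 at chr11:9118103-9136170, Foxf1 at chr8:121084386-121088144 and Tcl1 at chr12:105216750-105222793.

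Of the 10 genes, 7 had an entry in the RefSeq promoter table for GRCm38.p6. Promoters were searched on both strands, in the 250 bases before the start, for the E-box CANNTG, the site type that bHLH proteins bind, and for GCGNGGGCG, the site type of the EGR family to which Egr4 belongs. Overlap between the motifs was allowed. An E-box lay in 66.2% and the EGR motif in 4.70% of 32851 promoters of this length. The windows printed belong to Nanos3, which had the lowest ratio in the 2-day culture, to Id4, whose ratio differed in sign between the cultures, and to Upp1, most of whose UMIs lay outside germ cells in the 2-day culture. Upp1 has 3 starts in the table, and the first is shown. None of these 3 printed windows overlaps a GENCODE M21 exon of the 10 genes. Capitals mark the motif matches.
Nanos3 (chr8:84176553-84176802, minus strand): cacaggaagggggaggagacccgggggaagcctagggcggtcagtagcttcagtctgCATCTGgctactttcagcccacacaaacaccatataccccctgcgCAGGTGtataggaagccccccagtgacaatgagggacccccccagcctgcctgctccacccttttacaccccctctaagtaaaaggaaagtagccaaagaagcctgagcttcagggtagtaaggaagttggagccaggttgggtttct
Id4 (chr13:48260866-48261115, plus strand): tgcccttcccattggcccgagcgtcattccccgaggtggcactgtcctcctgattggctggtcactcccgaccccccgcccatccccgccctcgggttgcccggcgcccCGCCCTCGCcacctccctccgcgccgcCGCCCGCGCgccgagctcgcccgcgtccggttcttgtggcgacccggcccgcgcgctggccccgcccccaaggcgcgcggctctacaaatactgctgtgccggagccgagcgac
Upp1 (chr11:9117758-9118007, plus strand): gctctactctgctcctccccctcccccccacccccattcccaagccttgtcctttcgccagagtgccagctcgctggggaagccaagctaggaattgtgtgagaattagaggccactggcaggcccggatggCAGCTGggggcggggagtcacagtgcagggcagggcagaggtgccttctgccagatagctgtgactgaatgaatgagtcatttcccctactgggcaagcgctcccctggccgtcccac
Nanos3 held 2 E-boxes, the printed Upp1 window held 1 (the other Upp1 starts had 1 and 2) and Id4 held 2 EGR matches and no E-box. The windows of Egr4, Nanos2 and Lhx1 held neither motif, and that of Tcl1 held 1 E-box. These are letter matches and say nothing of binding.

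Kept cells numbered 6877 in the 2-day culture, 5150 at 9 dpp, 4816 in the 7-day culture and 6195 at 14 dpp, with medians of 3606, 8544.5, 5577.5 and 6447 UMIs. Kept cells of a pair of libraries shared 29 to 75 barcodes. Germ cells made up 41.1%, 53.2%, 53.4% and 68.1% of kept cells in the same order, with 3737.5, 11397, 6836 and 7788.5 UMIs as the median. Their 5 germ markers, Ddx4, Dazl, Mael, Tdrd1 and Rnf17, summed to between 2149 and 2904 CPM, against 11 to 44.3 CPM in Sertoli range cells. Ddx4 and Dazl chose the germ cells, and Sertoli range cells were required to have no UMI of either. Part of this contrast was therefore set in advance. The germ cells also carried the 6 Sertoli markers, at 829.7 CPM in the 2-day culture, 996 CPM in the 7-day culture, and 1783 and 1888 CPM in the 9 and 14 dpp libraries. Somatic markers outnumbered germ markers in 4.28% to 12.8% of them. The rule makes a range and not a cell type. Cells with exactly 2 of the UMIs it counts held the 10 genes at 33.6 to 55.2 CPM, cells with 1 held them at 23.9 to 50.4 CPM, and cells with at least 4 held them at 136 to 385 CPM.

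In germ cells the 10 genes together were at 127 CPM in the 2-day culture, 360.1 CPM at 9 dpp, 172 CPM in the 7-day culture and 213 CPM for 14 dpp. The 9 dpp library was the highest and the 2-day culture the lowest. Culture over uncultured gave a log2 ratio of -1.51 (-1.58 to -1.43) for the younger pair and of -0.31 (-0.36 to -0.25) for the older. Between 9 and 14 dpp the log2 ratio was -0.76 (-0.79 to -0.72), and between the cultures it was 0.44 (0.36 to 0.53), or 0.11 when each cell had equal weight.

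Against 9 dpp, 9 of the 10 genes were more than 2-fold lower in germ cells of the 2-day culture, all but Sall4, and none was more than 2-fold higher. The count includes Id4, Nanos3 and Upp1, whose ratios are limited by their levels in somatic range cells, as given with each gene. Among all 15329 genes with enough UMIs, 8.25% were that much lower, 5.16% higher and 13.4% either way. The median log2 ratio was -1.66 over the 10 genes and -0.02 over all. In the 7-day culture against 14 dpp, Lhx1 alone was more than 2-fold lower and none was higher, beside 8.08% lower, 3.37% higher and 11.4% either way of all genes. The median there was -0.56 against 0.02. That count of 1 is near the background share, and it ranged from 0 to 3 over the other ways of processing. At 14 dpp against 9 dpp, Nanos2, Nanos3 and Lhx1 were more than 2-fold lower and none was higher, with a median of -0.88 against -0.06. Of all genes 5.26% were lower, 8.49% higher and 13.7% either way, and the count of 3 ranged from 1 to 6 over the other ways of processing. In the 7-day against the 2-day culture, Id4, Nanos2, Nanos3 and Foxf1 were more than 2-fold higher, and Sall4 and Lhx1 were at least 2-fold lower. Of all genes 8.61% were higher, 7.07% lower and 15.7% either way, and the median was 0.48 against -0.03. With 1 CPM added before the ratio, 3 genes were past 2-fold. Without the prophase range cells rich in pachytene genes, described with Id4, only Lhx1 was past 2-fold from 9 to 14 dpp, and only Nanos2, Nanos3 and Foxf1 between the cultures. The share of all genes past 2-fold was not counted without those cells or under the other ways of processing. These counts therefore have no background share beside them.

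**Figure D1:**
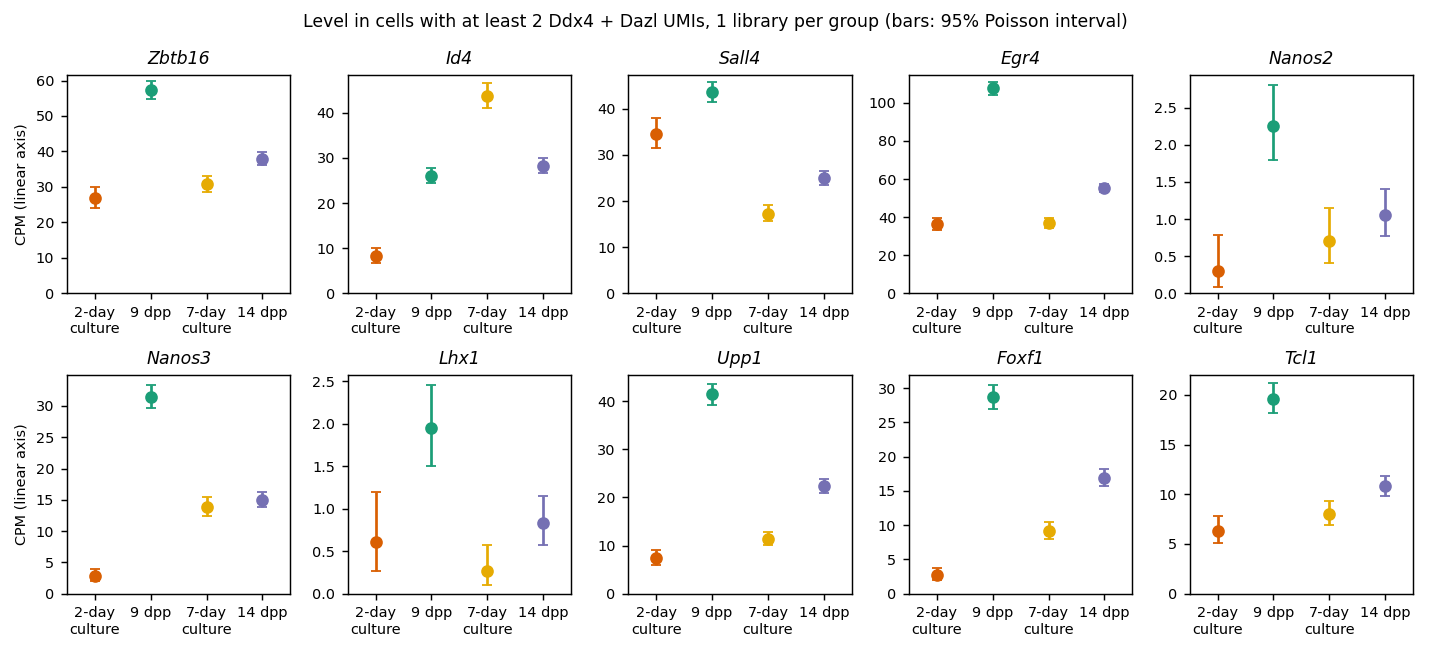
Level in germ cells (CPM, linear axes that start at 0) of each of the 10 genes in the 4 libraries, 1 point per library with its 95% Poisson interval. The 9 dpp library was the highest for 9 of the 10 genes, and for Id4 it was the 7-day culture, at 43.7 CPM, or 14.7 CPM without prophase range cells rich in pachytene genes.

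Zbtb16, also called PLZF, represses transcription and is needed to keep the stem cell pool. It was at 27.0 CPM in the 2-day culture, 57.4 CPM at 9 dpp, 30.9 CPM in the 7-day culture and 38.0 CPM for 14 dpp. Both cultures lay below both uncultured libraries. The log2 ratio was -1.09 (-1.26 to -0.93) in the younger pair and -0.30 (-0.43 to -0.17) in the older pair. To compare shares at 1 depth, cells were thinned to 2000 UMIs. A Zbtb16 UMI was then found in 4.84%, 9.90%, 4.30% and 5.27% of germ cells, and in at most 0.312% of Sertoli range cells, whose medians before thinning were 2880, 9722, 6767 and 7133.5 UMIs. Before thinning the shares were 10.9%, 33.9%, 13.5% and 19.2%.

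Sall4, which is also needed for the step to differentiation, was the member least lowered in the 2-day culture. Its levels were 34.6, 43.6, 17.3 and 25.0 CPM in the 2-day culture, at 9 dpp, in the 7-day culture and at 14 dpp. The 7-day culture was the lowest, unlike for most of the other genes. The log2 ratios were -0.33 (-0.49 to -0.18) in the younger pair and -0.53 (-0.70 to -0.36) in the older pair. Between the cultures the log2 ratio was -1.0 (-1.20 to -0.80).

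Id4 was at 8.32 CPM in the 2-day culture, 26.0 CPM at 9 dpp, 43.7 CPM in the 7-day culture and 28.3 CPM for 14 dpp. Over all germ cells it was the only one of the 10 genes with a higher level in a culture than in its uncultured partner. Somatic cells held Id4 too: Sertoli range cells were at 7.80, 6.75, 21.4 and 25.1 CPM. The 2-day level in germ cells was thus near that of Sertoli range cells (5.52 to 10.7 CPM). Among the 2-day germ cells, those with a Gfra1 or Ret UMI were at 60.1 CPM (43.7 to 80.7). Those with no Gfra1, Ret or Kit UMI were at 4.72 CPM (3.46 to 6.30). The part of somatic RNA in the 2-day level was not tested, so its log2 ratio to 9 dpp, -1.64 (-1.94 to -1.36), is given with that limit. The older pair had a ratio of 0.63 (0.51 to 0.75). In the 7-day culture 409 prophase range cells rich in pachytene genes, described with the ranges of germ cells, held 730 of the 989 Id4 UMIs, and at 14 dpp 317 such cells held 705 of 1230. Without them, a choice made after the values were seen, Id4 was at 14.7 and 13.8 CPM there, a log2 ratio of 0.08 (-0.14 to 0.30). Both levels lay below those of Sertoli range cells in these libraries, 21.4 and 25.1 CPM, so this ratio has the same limit. After thinning, 5.30% of the Sertoli range cells and 2.60% of the germ cells at 14 dpp had an Id4 UMI, so that share in germ cells is not read as their own expression.

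Nanos2, which holds cells in the undifferentiated state, was rare, with 4 UMIs in germ cells of the 2-day culture, 80 at 9 dpp, 16 in the 7-day culture and 46 at 14 dpp. These are 0.305, 2.26, 0.706 and 1.06 CPM. The 2-day log2 ratio was -2.88 (-4.79 to -1.47), and the 7-day ratio of -0.58 (-1.50 to 0.27) was within counting error of no difference. Nanos3, its relative in progenitors, was at 2.90 CPM in the 2-day culture, 31.5 CPM at 9 dpp, 13.9 CPM in the 7-day culture and 15 CPM for 14 dpp. The 2-day culture stood apart from the other 3 libraries. In that library Nanos3 was at 3.08 CPM (1.72 to 5.08) in Sertoli range cells, so its level in germ cells was at background. The log2 ratio to 9 dpp, -3.44 (-3.94 to -2.97), thus sets a background level against 31.5 CPM and is no measured fold of expression. The 7-day pair had a ratio of -0.11 (-0.30 to 0.09).

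Egr4 is a zinc-finger transcription factor of the EGR family that male fertility depends on in mice. Its levels were 36.4 CPM in the 2-day culture, 108 CPM at 9 dpp, 36.9 CPM in the 7-day culture and 55.2 CPM for 14 dpp. The cultures did not differ beyond counting error, with a log2 ratio of 0.02 (-0.14 to 0.19), or 0.35 (0.19 to 0.52) without prophase range cells rich in pachytene genes. Egr4 was lower than its uncultured partner in both, with log2 ratios of -1.57 (-1.71 to -1.43) and -0.58 (-0.70 to -0.47). Lhx1 had 8, 69, 6 and 36 UMIs in germ cells of the 2-day culture, 9 dpp, the 7-day culture and 14 dpp. Both cultures lay below both uncultured libraries. It had similar log2 ratios in both pairs, -1.67 (-2.94 to -0.61) and -1.64 (-3.18 to -0.38), each with a wide interval.

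Upp1 encodes uridine phosphorylase, which breaks uridine into uracil and ribose phosphate. It was at 7.41 CPM in the 2-day culture, 41.4 CPM at 9 dpp, 11.4 CPM in the 7-day culture and 22.3 CPM for 14 dpp. The log2 ratios were -2.48 (-2.80 to -2.19) and -0.97 (-1.17 to -0.77). In the 2-day culture mesenchymal range cells held Upp1 at 5.99 CPM (4.56 to 7.73) and Sertoli range cells at 3.29 CPM (1.88 to 5.34). The germ cell level there, with an interval of 6.01 to 9.04 CPM, was near that of mesenchymal range cells. The part of somatic RNA in it was not tested, so -2.48 is given with that limit. Foxf1, a forkhead transcription factor better known from mesenchyme, had 36 UMIs in germ cells of the 2-day culture, 1017 at 9 dpp, 208 in the 7-day culture and 737 at 14 dpp. The 2-day level was 10.4-fold below the 9 dpp level (log2 ratio -3.38, from -3.90 to -2.90). The 7-day ratio was -0.88 (-1.11 to -0.66). Tcl1, an activator of the kinase AKT, was at 6.34, 19.6, 8.03 and 10.8 CPM in the 2-day culture, at 9 dpp, in the 7-day culture and at 14 dpp. Both cultures were below both uncultured libraries, with log2 ratios of -1.63 (-1.98 to -1.30) and -0.43 (-0.68 to -0.18).

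**Figure D2:**
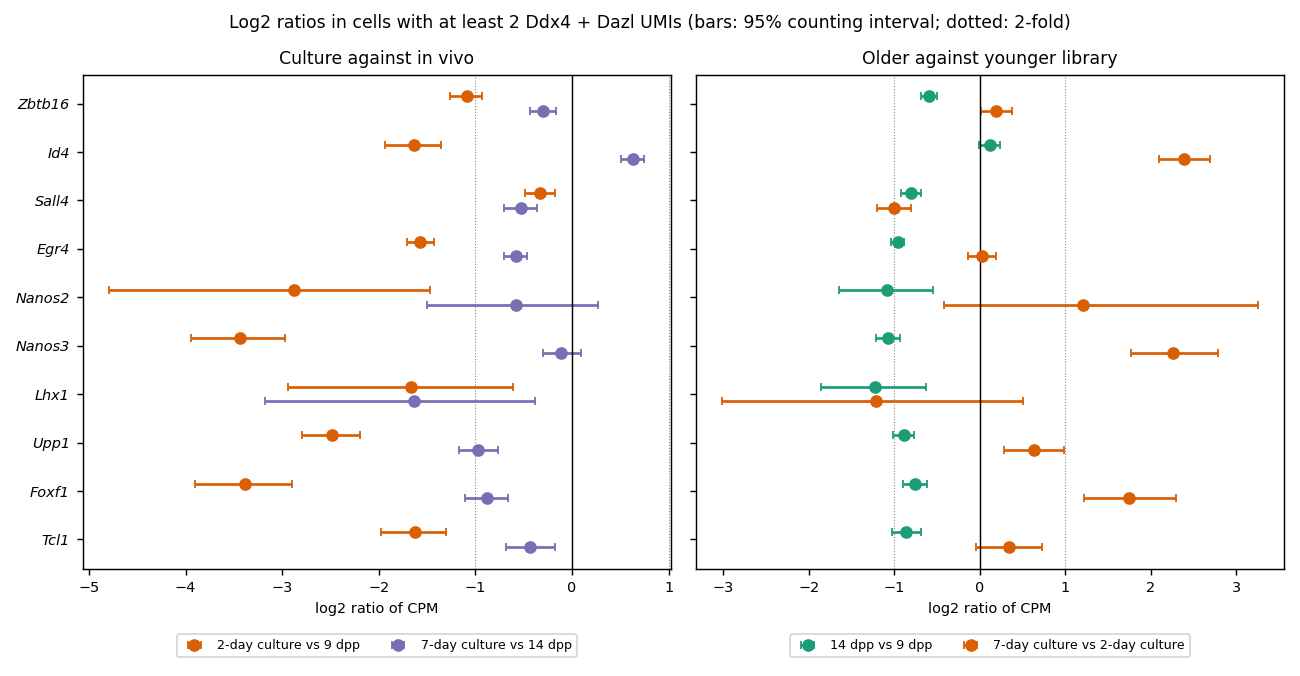
Log2 ratio of CPM in germ cells for each of the 10 genes, with 95% counting intervals and dotted lines at 2-fold: each culture over its uncultured partner (left) and the older over the younger library (right). Nanos3 and Foxf1 lie farthest to the left in the 2-day pair, at -3.44 and -3.38, with the 2-day Nanos3 level at background. Id4 is the only gene right of 0 in the 7-day pair, at 0.63, or 0.08 without prophase range cells rich in pachytene genes.

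Over time the uncultured and cultured libraries differed in sign for several genes. From 9 to 14 dpp, Nanos3 had a log2 ratio of -1.07, Foxf1 of -0.76 and Upp1 of -0.89. From the 2-day to the 7-day culture their ratios were 2.26, 1.74 and 0.63. In the 2-day culture the Nanos3 level was at background and the Upp1 level was near that of mesenchymal range cells. Id4 was at 0.12 (-0.01 to 0.24) from 9 to 14 dpp, or -0.63 when each cell had equal weight, and at 2.39 between the cultures. Without the prophase range cells rich in pachytene genes these became -0.91 (-1.07 to -0.76) and 0.81 (0.48 to 1.15). The Id4 levels behind them at 14 dpp and in the 7-day culture, 13.8 and 14.7 CPM, were below those of Sertoli range cells. The 2-day level was near that of Sertoli range cells, so both ratios are limited. For Upp1 the value between the cultures was 0.04 when each cell had equal weight. Egr4 and Tcl1, near 0 between the cultures, moved from 0.02 to -0.31 and from 0.34 to -0.17 under that weighting. Sall4 and Lhx1 had negative ratios in both series, at -0.81 and -1.0 for Sall4 and at -1.23 and -1.21 for Lhx1.

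Leaving out the germ cells in which somatic markers outnumbered germ markers lowered the 7-day ratios, to -0.52 for the sum, -0.51 for Zbtb16 and -0.35 for Nanos3.

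Over whole libraries the 10 genes summed to 74.3 CPM in the 2-day culture, 233 CPM at 9 dpp, 125 CPM in the 7-day culture and 173 CPM for 14 dpp. The log2 ratio was -1.65 in the younger pair and -0.46 in the older pair. In the 2-day pair 9 genes, again all but Sall4, were more than 2-fold lower and none higher, beside 9.24% lower, 7.46% higher and 16.7% either way of 16616 genes. In the 7-day pair Lhx1 and Foxf1 were lower, beside 6.78% lower, 7.42% higher and 14.2% either way. None of the 10 was past 2-fold between 9 and 14 dpp, where 5.57% of all genes were lower, 7.67% higher and 13.2% either way. From the 2-day to the 7-day culture Id4, Nanos2, Nanos3 and Foxf1 were higher and none lower, beside 9.22% higher, 5.55% lower and 14.8% either way. The share of germ cells in a library moves these values too.

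Germ cells held over 92% of the UMIs of 9 of the 10 genes at 9 dpp and of 9 at 14 dpp, with Id4 as the exception. In the 2-day culture they held 23.8% of the Upp1 UMIs, 36.9% of the Id4 UMIs and 55.9% of the Nanos3 UMIs. Endothelial range cells held 46.2% of the Upp1 UMIs there. In those cells Upp1 was at 337 CPM (291 to 389) in the 2-day culture, 22.3 CPM (7.23 to 51.9) at 9 dpp, 257 CPM (213 to 307) in the 7-day culture and 18.7 CPM (5.10 to 47.9) for 14 dpp. The cultures were high and the uncultured libraries low, and they did not overlap, over 43, 16, 16 and 15 cells. Upp1 thus had a higher level in endothelial range cells of both cultures than in those of the uncultured libraries. Foxf1 in endothelial range cells was at 16.1, 4.45, 10.7 and 51.4 CPM, each from at most 11 UMIs.

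**Figure D3:**
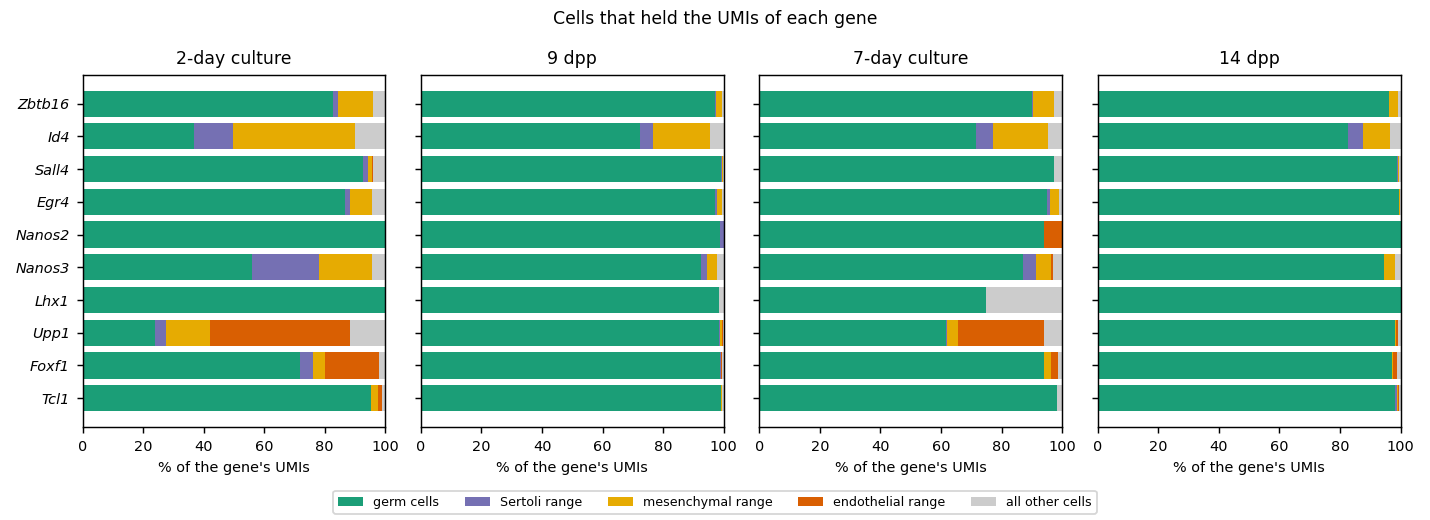
Share of the UMIs of each gene (percent, 0 to 100) that lay in germ cells, in Sertoli, mesenchymal and endothelial range cells and in all other cells, by library. Endothelial range cells held 46.2% of Upp1 UMIs in the 2-day culture and 28.5% in the 7-day culture, against 0.335% at 9 dpp.

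Germ cells were then split, at 2000 UMIs per cell, by a list of 15 meiotic prophase genes (at least 3 UMIs) and a list of 7 differentiation genes such as Kit and Stra8 (at least 2 UMIs), with the remaining cells called neither. These are ranges of a score and not cell types. The neither range had 203 cells in the 2-day culture, 766 at 9 dpp, 257 in the 7-day culture and 711 at 14 dpp. There the 10 genes summed to 148, 457, 349.8 and 352 CPM, with the 6 Sertoli markers at 4912, 4347, 4909.8 and 4442 CPM, whose part in these levels was not tested. In the prophase range the 10 genes were at 101, 230.3, 113 and 119.7 CPM. The 2-day culture had its highest level in the differentiating range, at 176 CPM, and the other 3 libraries had theirs in the neither range.

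Id4 followed another pattern among these ranges. In the prophase range it was at 6.56 CPM in the 2-day culture, 18.9 CPM at 9 dpp, 53.6 CPM in the 7-day culture and 36.0 CPM for 14 dpp. In the older pair of libraries the prophase range was the highest of the 3, and in the younger pair it was not. Prophase range cells with at least 3 UMIs of 7 genes known from pachytene, a later step of prophase, such as Ldhc, Piwil1 and Hspa2, numbered 37, 30, 409 and 317. In them Id4 was at 147 CPM (136 to 158) in the 7-day culture and 128 CPM (118 to 137) for 14 dpp, with a UMI in 43.3% and 42.9% of cells (median depth 9885 and 12841 UMIs). In Sertoli range cells of these libraries 10.1% and 16.1% had an Id4 UMI. Prophase range cells with no UMI of the 7 genes were at 5.85 and 8.88 CPM. Sall4 was at 1.0 and 1.63 CPM in the selected cells of the older pair, Zbtb16 at 1.21 and 2.17 CPM and Egr4 at 1.81 and 3.62 CPM. Sertoli markers summed to 319 and 902 CPM in the same cells. Tcl1 was at 6.23 and 3.98 CPM there. Prophase range cells with no UMI of the 7 genes held Tcl1 at 4.29 and 4.64 CPM, with overlapping intervals. Nanos3, Upp1 and Foxf1 were at 1.21 CPM or below in the selected cells. So Id4 was high in the selected cells while Zbtb16, Sall4 and Egr4 were low, and the Id4 sum over germ cells includes these cells. The few cells selected in the younger pair were unlike them. At 9 dpp they had Egr4 at 218 CPM and Zbtb16 at 68.4 CPM, and in the 2-day culture Sall4 at 44.7 CPM, so they are not read as pachytene cells, and they held 11 and 1 Id4 UMIs.

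**Figure D4:**
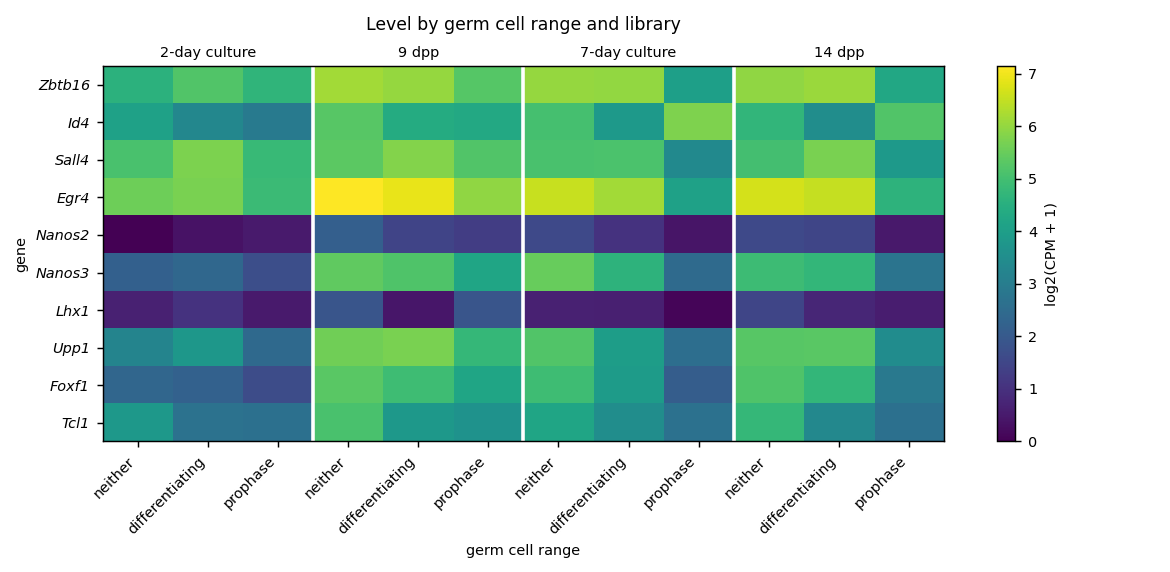
Level of each gene, as log2(CPM + 1) by colour, in the neither, differentiating and prophase ranges of germ cells in the 4 libraries. Most genes are lowest in the prophase range, and Id4 is highest there in the 7-day culture and at 14 dpp, at 53.6 and 36.0 CPM.

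To look at cells nearer the stem cell end, germ cells with a UMI of Gfra1 or Ret were taken, a choice made after the values above were seen. There were 122 in the 2-day culture, 370 at 9 dpp, 145 in the 7-day culture and 262 at 14 dpp, or 4.32%, 13.5%, 5.64% and 6.21% of germ cells, and 2.30%, 3.79%, 1.69% and 1.61% after thinning. The median depth was 5295.5 UMIs in the 2-day culture and 13128.5 to 14819.5 UMIs in the other 3. Here the 10 genes summed to 451 CPM in the 2-day culture, 976 CPM at 9 dpp, 803 CPM in the 7-day culture and 977 CPM for 14 dpp. The 9 and 14 dpp libraries did not differ beyond counting error, with a log2 ratio of 0.00 (-0.06 to 0.06), where all germ cells had given -0.76. That sum joins genes of both signs: Id4 was at -0.57 (-0.79 to -0.34), Foxf1 at 0.24 (0.03 to 0.45) and Zbtb16 at 0.18 (0.03 to 0.34), and the intervals of the other 7 reached 0.

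In the Gfra1 or Ret cells, Foxf1, Nanos3 and Upp1 were again lowest in the 2-day culture. Nanos3 was at 10.9 CPM there, 85.4 CPM at 9 dpp, 96.6 CPM in the 7-day culture and 79.2 CPM for 14 dpp. Foxf1 was at 9.56, 78.0, 60.2 and 92.1 CPM, and Upp1 at 19.1, 93.0, 68.3 and 105 CPM, in the same order. The log2 ratios to 9 dpp were -2.97 (-4.19 to -1.98) for Nanos3, -3.03 (-4.35 to -1.97) for Foxf1 and -2.28 (-3.16 to -1.52) for Upp1. Egr4 was lower too, at -1.06 (-1.36 to -0.77), as were Zbtb16 at -0.87, Tcl1 at -0.83 and Id4 at -0.67. Sall4, at -0.27 (-0.70 to 0.13), Nanos2, at -0.72 (-2.64 to 0.73), and Lhx1, at -0.47 (-2.15 to 0.83), were within counting error of 9 dpp. In the 7-day culture Nanos3 was slightly above 14 dpp, at 0.29 (0.03 to 0.54), and Zbtb16 and Id4 were within counting error of it, at -0.04 (-0.24 to 0.15) and 0.01 (-0.30 to 0.31). Upp1, Foxf1, Tcl1 and Egr4 were lower than at 14 dpp, at -0.62, -0.61, -0.68 and -0.36, as was Lhx1, at -2.01 (-3.99 to -0.49) from 4 UMIs. With at least 2 UMIs of Gfra1 and Ret, fewer of these differences passed counting error. The 2-day ratios were -2.52 (-4.81 to -0.95) for Nanos3, -1.93 (-3.82 to -0.54) for Foxf1 and -1.38 (-3.02 to -0.12) for Upp1, from 3, 4 and 5 UMIs in 38 cells. Id4 and Tcl1 remained lower, at -0.99 (-1.81 to -0.27) and -1.02 (-1.87 to -0.27), Egr4 was at -0.51 (-0.98 to -0.07), and the Zbtb16 interval, around -0.42 (-1.08 to 0.17), reached 0. In the older pair Upp1, at -0.11 (-0.49 to 0.27), and Egr4, at 0.03 (-0.18 to 0.24), were then within counting error of 14 dpp, while Foxf1, Tcl1 and Lhx1 were lower, at -0.52, -0.85 and -2.46, and Nanos3 was higher, at 0.74 (0.38 to 1.10). Sertoli markers in the 7-day culture were at 36.0 CPM in these cells, against 515 CPM in those with 1 UMI. Stra8, the retinoic acid response gene that opens differentiation, was at 402 CPM in the cells with at least 2 UMIs of the 2-day culture, 125 CPM at 9 dpp, 242 CPM in the 7-day culture and 117 CPM for 14 dpp. In germ cells with neither Gfra1 nor Ret it was at 1212, 608, 611 and 547 CPM, so the 2-day culture was the highest there too.

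**Figure D5:**
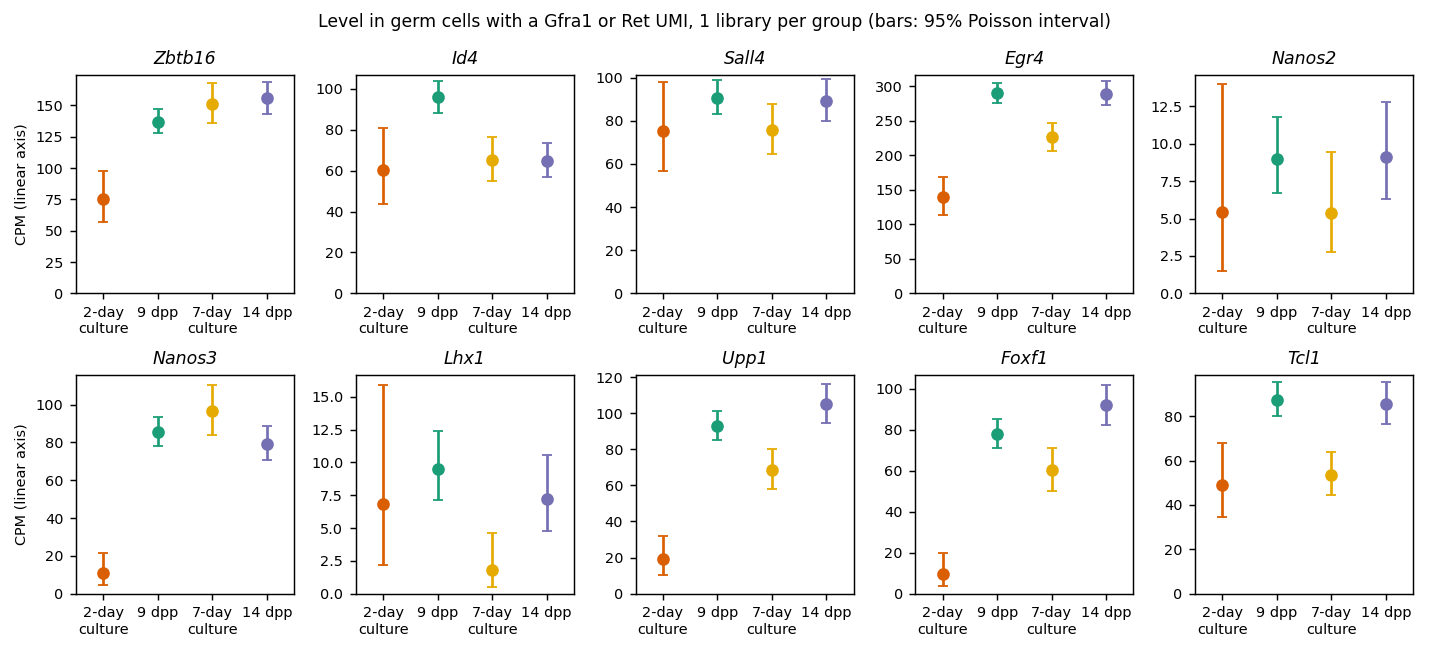
Level (CPM, linear axes that start at 0) of each gene in germ cells with a Gfra1 or Ret UMI, 1 point per library with its 95% Poisson interval. In the 2-day culture Nanos3, Foxf1 and Upp1 lie at 10.9, 9.56 and 19.1 CPM, below the other 3 libraries, which lie at 60.2 to 105 CPM.

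At 9 dpp the 10 genes split by how many Gfra1 and Ret UMIs a cell had. From cells with 1 to cells with at least 3, Id4 went from 63.2 to 166 CPM, Tcl1 from 53.7 to 167 CPM, Lhx1 from 5.67 to 18.8 CPM and Nanos2 from 5.67 to 19.7 CPM. Upp1 went the other way, from 119 to 34.4 CPM, as did Foxf1, with a log2 ratio of -0.78 (-1.20 to -0.38), Nanos3, from 92.2 to 68.8 CPM, and Egr4, from 295 to 228 CPM. Zbtb16 and Sall4 were flat, with log2 ratios of 0.18 (-0.07 to 0.43) and -0.01 (-0.34 to 0.31). At 14 dpp the log2 ratio of cells with at least 3 to cells with 1 had the same sign, beyond counting error, for Id4 (1.09), Tcl1 (1.68), Lhx1 (2.73) and Upp1 (-0.87). It was not beyond counting error there for Foxf1, at -0.01 (-0.45 to 0.41), Nanos2, at 0.23 (-1.27 to 1.56), Nanos3, at -0.43 (-0.94 to 0.06), and Egr4, at -0.23 (-0.48 to 0.01). In the 7-day culture Upp1, Nanos3 and Egr4 had the sign opposite to 9 dpp, at 0.81 (0.27 to 1.35), 0.97 (0.51 to 1.43) and 0.94 (0.64 to 1.25), while Tcl1 was at 1.21 (0.56 to 1.88) and Zbtb16 at 0.61 (0.26 to 0.97). Sertoli markers in those cells of the 7-day culture were at 515 CPM with 1 UMI and at 45.1 CPM with at least 3, and their part in these ratios was not tested. At 9 dpp the cells with 1 had a median of 16130 UMIs and Sertoli markers at 205 CPM, and those with at least 3 had 13681.5 UMIs and 466 CPM.

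The share of germ cells with several of the genes differed between libraries. At 2000 UMIs per cell, 3.40% of germ cells in the 2-day culture had UMIs of at least 2 of the 10 genes, against 14.2% at 9 dpp, 3.33% in the 7-day culture and 6.06% at 14 dpp. In Sertoli range cells, thinned alike, a UMI of any of the 10 genes was found in 2.82%, 2.83%, 4.31% and 5.92%, against 15.8%, 30.0%, 14.1% and 16.6% of germ cells. Without thinning, the shares with at least 2 genes were 11.7%, 37.7%, 11.7% and 18.7%. The most genes in 1 cell were 6, 10, 9 and 9. No UMI of the 10 genes was found in 71.1%, 44.9%, 69.2% and 63.9%. Of the 125 germ cells with Nanos2, 70 were at 9 dpp, so joint detection is given for that library, beside the share of all its germ cells. Of those 70 cells, 94.3% had Egr4 (33.0% of all), 82.9% Zbtb16 (33.9%), 71.4% Nanos3 (18.1%) and 8.57% Kit (27.9%). Of 54 cells with Lhx1, 74.1% had Tcl1 (12.3% of all) and 48.1% Gfra1 (6.24%), while 27.8% had Nanos3 and 18.5% Upp1 (19.0%). Nanos3 and Upp1 were thus found in Lhx1 cells at shares whose intervals, 16.5% to 41.6% and 9.25% to 31.4%, include those in all germ cells. Of 450 cells with Foxf1, 65.1% had Nanos3 and 68.7% Upp1. These shares were 64.0% and 63.1% of 347 Foxf1 cells at 14 dpp, 59.8% and 58.0% of 112 in the 7-day culture, and 6.25% and 12.5% of 32 in the 2-day culture. All germ cells of these libraries had Nanos3 in 8.16%, 5.95% and 1.27% and Upp1 in 8.46%, 4.51% and 3.19%, the lower base going with the lower share in the 2-day culture. The 2-day intervals, 0.766% to 20.8% for Nanos3 and 3.51% to 29.0% for Upp1, are wide, and that for Nanos3 includes the share in all. At 9 dpp cells with Nanos2, Lhx1 or Foxf1 had medians of 15921, 13124 and 16659 UMIs against 11397 in all germ cells, and the part of depth in this joint detection was not tested.

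Of 21 other genes of undifferentiated spermatogonia, 19 had enough UMIs for a ratio (T and Pax7 did not). In the 2-day pair 8 were more than 2-fold lower and none higher, beside 8.25% lower of all genes, with a median of -0.62 against -0.02 over all. In the 7-day pair 3 were lower and none higher, beside 8.08% lower, with a median of -0.27 against 0.02. From 9 to 14 dpp 4 were lower and none higher, beside 5.26% lower, with a median of -0.79 against -0.06. Between the cultures none was past 2-fold, beside 15.7% either way, with a median of -0.32 against -0.03. Eomes, Tspan8 and Utf1 were past 2-fold in both culture pairs. Both Eomes intervals reached 0. Utf1, a chromatin protein of pluripotent and undifferentiated germ cells, was at 3.21, 16.0, 3.05 and 16.7 CPM in germ cells of the 2-day culture, 9 dpp, the 7-day culture and 14 dpp. Sertoli range cells were at 2.05, 5.55, 5.63 and 58.8 CPM, so its log2 ratios of -2.32 and -2.45 are no measured folds of expression in germ cells. Tspan8, a membrane tetraspanin, was at 1.83, 8.40, 1.99 and 4.41 CPM in germ cells and at 4.72, 12.4, 1.69 and 8.93 CPM in Sertoli range cells, and its ratios of -2.20 and -1.15 are limited likewise. Of the GDNF receptor genes, Gfra1 had -0.33 (-0.71 to 0.04) and 0.15 (-0.20 to 0.50), and Ret had -0.88 (-1.22 to -0.55) and 0.46 (0.19 to 0.72). Gfra1 and Ret were at most at 0.282 CPM in Sertoli range cells, apart from Gfra1 in the 7-day culture, at 3.66 CPM. Etv5, a GDNF target, had ratios of -0.19 and -0.23, but at 5.34 to 8.09 CPM in germ cells it lay below mesenchymal range cells, at 10.5 to 20.5 CPM, in each library, so these are not read as germ cell expression. Levels in somatic ranges also limit the counts over the 19 genes.

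Genes patterned most like the 10 were sought by 2 measures. Across 12 points (3 ranges in 4 libraries, which share cells, library and depth), Zfp773 had the highest Pearson r with the mean level of the 10 genes, both as log2(CPM + 1), 0.98 among 12620 genes, followed by Aqp5, 2010300C02Rik, Dnmt3a, Tspan8, Rrp9 and Pygl at 0.95 and Mypop at 0.94. By the smallest log2 ratio, with 1 CPM added to both levels, over the 4 libraries between cells with at least 2 of the genes and cells with none, Gfra1 came first of 15319 genes, at 3.16. Nefm (2.93), Foxc2 (2.90), Ret (2.89), Rspo2 (2.62), Pik3cd (2.55), Large2 (2.51), Igsf21 (2.50), Peli2 (2.46) and Glis3 (2.43) came next. Gfra1 was at 14.9 to 23.1 CPM in the cells with at least 2 of the genes and at 0.0850 to 1.31 CPM in those with none. The former cells were deeper in each library, with 6719 against 3101.5 UMIs as the medians in the 2-day culture.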

How the data were processed

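Single-cell libraries from 4 testis groups were used, 1 per group. The deposited values are raw UMI counts per gene and barcode, made with Cell Ranger 3.0.2 on mm10, per the submitters' processing notes. The annotation and cell calling settings are not given in the sources used here. Identifiers that share a symbol were summed. Kept barcodes had 500 or more genes and no more than 20% mitochondrial UMIs, and Scrublet calls (scanpy 1.11.5, expected rate 6%), 1.89% to 3.55% per library, were removed. Kept cells held 32078508 to 57585867 UMIs per library.

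UMIs were summed over cells and divided by the cells' total (CPM). Ratios are log2 ratios of CPM, and a ratio needed 50 UMIs over the 4 libraries. Called means past 2-fold. A library at 0 UMIs was set to 3 UMIs for ratios. Thinning drew 2000 UMIs per cell, and shallower cells (25 to 385 germ cells per library) were left out. Range cells without Ddx4 or Dazl UMIs had at least 5 UMIs of a somatic marker list, which was their highest. Alternatives varied the germ cell rule, cell filter, doublet removal, equal weighting of cells and TMM factors (edgeR 4.0.16, used for scaling only). The procedure was tested on simulated data.

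The 10 genes and all lists were chosen with earlier results of these data known. Named genes are all 10 members, the 8 and the 10 genes most like them by the measures described, and, of the 21 other genes, those past 2-fold in both culture pairs plus Gfra1, Ret and Etv5. Other genes were named after their values were seen. Gene identifiers were matched to GENCODE M21 on GRCm38, and promoters came from RefSeq.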

Additional observations from a re-analysis of the deposited data

Results flagged for a closer look

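These results had opposite signs in the 2 contrasts set side by side, with neither interval reaching 0. None of the differences was tested. In germ cells, Id4 had a log2 ratio of culture to uncultured of -1.64 in the younger pair and 0.63 in the older pair. Over the whole library these were -1.27 and 0.49. The other cases compare time without culture (14 over 9 dpp) and time in culture (7 over 2 days). In germ cells the log2 ratios were -0.60 and 0.19 for Zbtb16, -1.07 and 2.26 for Nanos3, -0.89 and 0.63 for Upp1, -0.76 and 1.74 for Foxf1, and -0.76 and 0.44 for the sum of the 10 genes. Over the whole library they were -0.25 and 0.65 for Zbtb16, -0.67 and 0.47 for Egr4, -0.78 and 1.88 for Nanos2, -0.77 and 2.20 for Nanos3, -0.40 and 1.93 for Foxf1, -0.52 and 0.88 for Tcl1, and -0.43 and 0.76 for the sum. The Nanos3 values between the cultures rest on a 2-day level in germ cells, 2.90 CPM, that was at the background of 3.08 CPM in Sertoli range cells. The 2-day level of Id4, 8.32 CPM, was near the 7.80 CPM of Sertoli range cells, and that of Upp1, 7.41 CPM, near the 5.99 CPM of mesenchymal range cells. The part of somatic RNA in these 2-day levels was not tested. The Id4 value of 0.63 was 0.08 (-0.14 to 0.30) without prophase range cells rich in pachytene genes, a choice made after the values were seen. In germ cells its change of sign beyond counting error thus rests on those cells. The levels left, 14.7 and 13.8 CPM, were below those of Sertoli range cells. The whole library values were not computed without those cells. The 2-day culture enters both kinds of contrast, and it had the shallowest cells, at a median of 3606 UMIs.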

How the results depend on the processing

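No paired analysis was possible because each group had 1 library. No result changed direction among those whose interval left out 0. Of 400 values of single genes in germ cells, 370 stayed within the interval of the reported value and 30 did not. For the 2-day pair, the count past 2-fold was 9, or 8 with 1 CPM added. For 14 over 9 dpp (3), it was 1 with 1 CPM added, 1 with at least 1000 genes and at most 10% mitochondrial UMIs per cell, 6 with cells weighted equally and 1 without cells rich in somatic markers. For the 7-day pair (1), it was 0 with 1 CPM added, 2 with at least 4 Ddx4 and Dazl UMIs, 2 with all barcodes, 2 with the rule applied after thinning, 3 with equal weights and 3 without somatic-rich cells. For 7 over 2 days (6), it was 3 with 1 CPM added. The share of all genes past 2-fold was not counted under these settings, so a moved count may not be particular to the 10 genes.

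For the sum in germ cells, the log2 ratio of 14 over 9 dpp was -0.69 with a 1-UMI rule, -0.67 with the stricter filter, -0.96 with equal weights, -0.72 with TMM and -0.64 without somatic-rich cells. The 2-day ratio was -1.61 without somatic-rich cells. The 7-day ratio was -0.42 after thinning, -0.47 with equal weights and -0.52 without somatic-rich cells. Between the cultures it was 0.31 after thinning and 0.11 with equal weights. Over whole libraries, 14 over 9 dpp gave -0.33 (stricter filter) and -0.59 (equal weights), the 2-day pair -1.44 (equal weights) and -1.52 (TMM), the 7-day pair -0.53 (stricter filter), and 7 over 2 days 0.39 (equal weights) and 0.64 (TMM). The cause was not tested. Leaving out prophase range cells rich in pachytene genes, chosen after seeing the data, moved Id4 in the 7-day pair from 0.63 to 0.08. Low counts limit the reading of Nanos2 and Lhx1, with 4 and 8 UMIs in germ cells of the 2-day culture.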
